A study of Mus musculus with 2 samples.

Results

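Mrgpra3 itch neurons, the non-peptidergic class called NP2, were chosen from lumbar L4-5 dorsal root ganglia by their own transcripts. A cell barcode was called a neuron if it held at least 500 genes, under 20% mitochondrial UMIs (unique molecular identifiers, one per captured transcript), at least 10000 UMIs, and at least 25 UMIs per 10000 from Uchl1, Tubb3, Snap25 and Stmn2 together. A neuron was called NP2 if Mrgpra3 reached 1 UMI per 10000 and Sst stayed under 1 per 10000. This gave 92 NP2 neurons, 32 in library 1 and 60 in library 2, of 1581 neurons and of 20585 barcodes in all. The rule used measured values, so the levels of Mrgpra3, Sst, the 4 neuronal genes and mitochondrial genes describe the choice and were not tested.

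Both libraries came from wild-type mice aged 8 weeks whose skin had been treated with acetone, ether and water (AEW), which dries the skin and makes mice scratch. For both, the tissue was digested at 37 °C. The labels gave no other group, so every comparison was between neurons of the same libraries and none bears on AEW itself. They did not say whether the libraries came from separate or pooled animals, so differences between the libraries may be technical. P-values rest on how differences between neuron groups varied across these 2 libraries, with spread shared over genes. They do not measure a spread between known animals. The labelled cell type was neuron, but 1581 of 19619 barcodes with enough genes and few mitochondrial UMIs passed the neuron rule.

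Skin itch is carried by a few kinds of unmyelinated sensory neuron. The NP2 class carries Mrgpra3, the receptor through which chloroquine evokes itch in mice, often together with the related receptor Mrgprx1 (MrgprC11), which responds to peptides such as BAM8-22. These receptors work through G proteins, and the signal is passed on to TRP channels that depolarise the ending. A second itch class, NP3, carries Nppb, Sst and the interleukin 31 receptor, and NP1 neurons carry Mrgprd, the beta-alanine receptor.

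The Mrgpra3 gene lies at chr7:47588950-47601372 on the minus strand of GRCm38, inside a cluster of Mas-related receptor genes whose near-identical copies can share reads, so counts of this family are uncertain. The promoters of 3 genes that were high in NP2 neurons and of Gfra1, a further marker of the class, are shown because each was higher in NP2 neurons than in other neurons. Each is the 250 bases before the RefSeq start on GRCm38.p6, read 5′ to 3′ along the gene, with capitals marking the ETS core CCGGAA on either strand.
Cfap61 (chr2:145934534-145934783, plus strand): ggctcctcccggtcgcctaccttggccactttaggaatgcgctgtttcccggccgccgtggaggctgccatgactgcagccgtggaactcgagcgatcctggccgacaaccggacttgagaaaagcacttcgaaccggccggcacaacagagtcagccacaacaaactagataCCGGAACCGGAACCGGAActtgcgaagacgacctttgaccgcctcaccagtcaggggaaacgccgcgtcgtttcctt
Hrh1 (chr6:114397686-114397935, plus strand): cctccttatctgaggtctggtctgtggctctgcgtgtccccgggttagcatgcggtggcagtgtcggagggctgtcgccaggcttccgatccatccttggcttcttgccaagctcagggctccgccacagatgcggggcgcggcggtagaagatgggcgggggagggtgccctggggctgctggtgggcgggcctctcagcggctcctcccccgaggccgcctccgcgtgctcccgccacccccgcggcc
Rspo1 (chr4:124986180-124986429, plus strand): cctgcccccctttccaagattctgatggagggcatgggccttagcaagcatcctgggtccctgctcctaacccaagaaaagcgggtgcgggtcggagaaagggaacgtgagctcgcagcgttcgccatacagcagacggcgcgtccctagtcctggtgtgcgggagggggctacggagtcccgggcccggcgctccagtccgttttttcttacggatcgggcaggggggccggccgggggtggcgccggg
Gfra1 (chr19:58455399-58455648, minus strand): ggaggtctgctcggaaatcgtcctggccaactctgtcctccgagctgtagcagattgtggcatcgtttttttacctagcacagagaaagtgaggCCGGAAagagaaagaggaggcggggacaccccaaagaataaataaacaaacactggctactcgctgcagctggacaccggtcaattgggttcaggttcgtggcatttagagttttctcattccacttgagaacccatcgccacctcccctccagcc
The ETS core was searched because Etv1, an ETS factor, was high in these neurons. It stood 3 times in tandem in the Cfap61 window, 65, 71 and 77 bases before the start, and once in the Gfra1 window, 156 bases before it. Of the 12 named genes highest in NP2 neurons, 11 had an entry, and Cfap61 was the 1 of these with a match, while 3952 of all 32851 promoter windows of this length held one. The RUNX core TGTGGT and the OVOL core CCGTTA were found in 0 of the 11 windows, against 4614 and 715 of all 32851 windows. The motifs do not overlap one another, and a match or its lack in these letters describes the window only.

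NP2 neurons made up 5.02% of neurons in library 1 (exact Clopper-Pearson 95% interval 3.46 to 7.01, counting error only) and 6.36% in library 2 (4.89 to 8.11), a mean of 5.69% ± 0.952 (SD, n = 2 libraries). The members nearest the threshold had 1.00 and 1.06 Mrgpra3 UMIs per 10000 in libraries 1 and 2, and the highest neurons under the threshold had 0.922 and 0.993. Within the class the median was 3.80 and 3.22 per 10000 and the highest cell had 9.91 and 14.1. No member held an Sst UMI. Among all other neurons 6.11% and 10.1% of cells held at least 1 Mrgpra3 UMI, and 1 of these, in library 2, passed the Mrgpra3 threshold but was left out by Sst. The libraries shared 24 barcodes, and 0 of these were NP2.

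Depth set the libraries' members apart. NP2 neurons had a median of 149208.5 UMIs in library 1 (41120 to 242442) and 37837 in library 2 (10095 to 120181), while other neurons had medians of 98470 and 57445. All 32 members of library 1 held at least 40000 UMIs, a limit set after the data were seen, whereas 28 of 60 in library 2 did. Among neurons under 40000 UMIs the NP2 share was 0 of 114 cells in library 1, with an upper 95% limit of 3.18%, and 9.67% (32 of 331) in library 2. Among neurons of 40000 UMIs or more the share was 6.11% in library 1 and 4.58% in library 2, so the order of the libraries turned. Median mitochondrial shares were 0.887% and 2.62% in NP2 neurons, against 2.69% and 3.82% in other neurons.

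As a group, the 32 shallow members of library 2 held transcripts of other classes. Per 10000 UMIs, their median was 11.002 for Tac1, the substance P gene, against 0.814 in the 28 deep members of the same library. Apoe, a satellite glia gene, had medians of 33.7 and 1.30 in these shallow and deep members, and Th, which marks touch neurons, 1.72 and 0. Gfra1 was at 0 in 14 of the 32 shallow members and Rspo1 in 13, against 0 and 1 of the 28 deep ones. Of the shallow members, 8 rested on fewer than 3 Mrgpra3 UMIs. The summed levels of the markers moved the same way: satellite glia markers (8 genes) stood at 5095 CPM in the shallow and 675 CPM in the deep members of library 2, and at 1073 CPM in library 1, where CPM, the usual depth-scaled unit, are UMIs of the summed cells scaled to a common total. Peptidergic markers (8 genes) stood at 1245, 269 and 180 CPM in the same 3 sets. Other neurons of library 2 under 40000 UMIs held satellite glia markers at 5430 CPM and peptidergic markers at 2607 CPM. The part of these transcripts in the results was not tested, and values without the shallow cells are given beside several results.

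**Figure D1:**
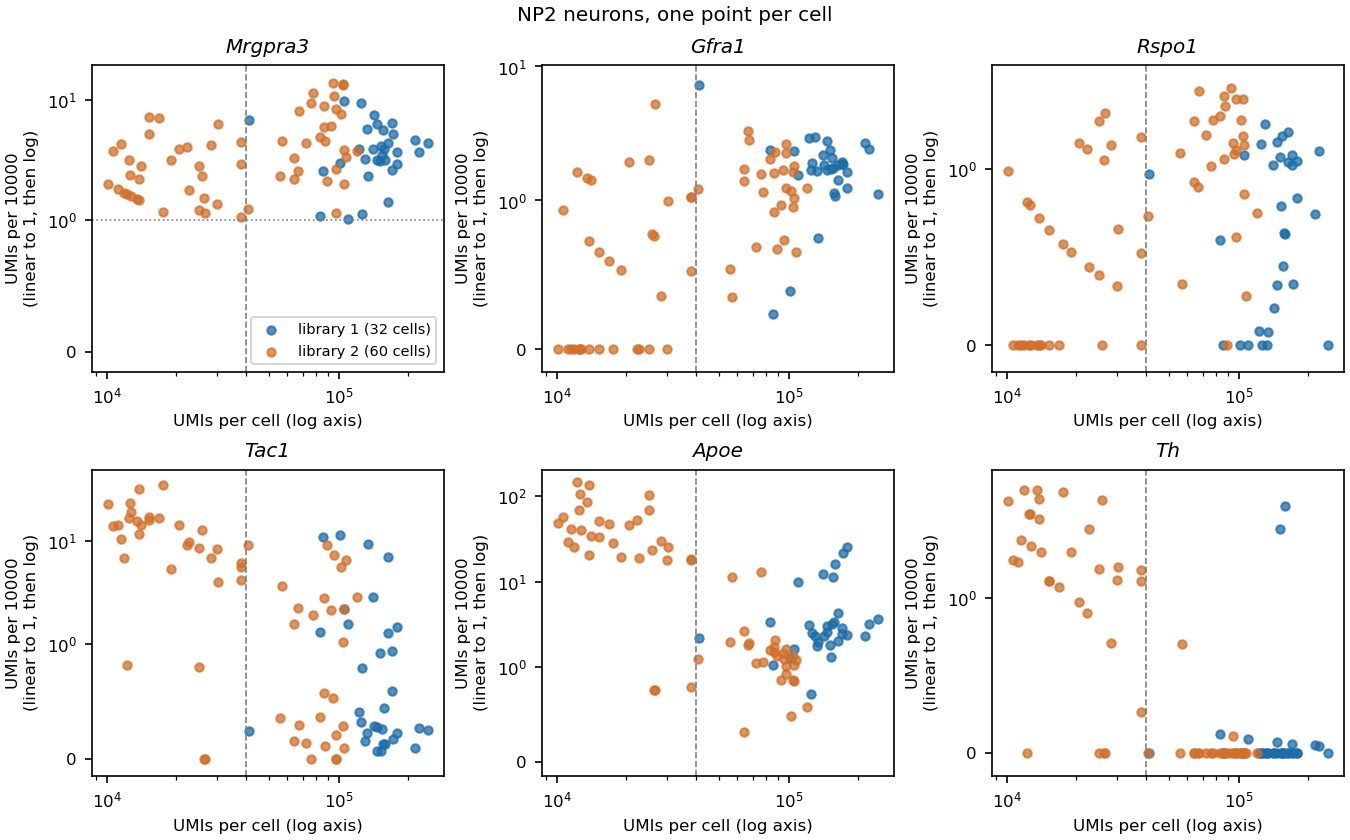
Levels of 6 genes (UMIs per 10000, linear up to 1 and logarithmic above) against UMIs per cell (log axis) in the 92 NP2 neurons, 1 point per cell, library 1 in blue (32 cells) and library 2 in orange (60 cells). The dashed lines mark 40000 UMIs and the dotted line the Mrgpra3 threshold of 1 per 10000. By median, the 32 shallow cells of library 2 carry more Tac1, Apoe and Th than the deep cells. Tac1 is at 0 in 2 of these shallow cells and Th in 4.

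The label was checked against the markers of the class, which are Mrgpra3, Mrgprx1, Gfra1 and Rspo1. Mrgpra3 itself, which chose the cells, stood at 415 and 554 CPM in libraries 1 and 2. UMIs were summed over NP2 neurons and over all other neurons within each library, and all tested genes were compared with edgeR's quasi-likelihood test, with library as a term and Benjamini-Hochberg adjustment; fold changes are log2, NP2 over other, ± SE. Mrgprx1 stood at 10.5 and 9.53 CPM in NP2 neurons, against 1.07 and 0.895 CPM in other neurons (log2 fold change 3.48 ± 0.41, adjusted p = 2.72e-12). Gfra1, the receptor of the neurotrophic factor GDNF, stood at 186 and 130.5 CPM in NP2 neurons, against 40.2 and 22.1 CPM in other neurons (log2 fold change 2.51 ± 0.12, adjusted p = 4.76e-38). Rspo1, a secreted enhancer of Wnt signalling, stood at 78.1 and 137 CPM in NP2 neurons, against 12.5 and 12.9 CPM in other neurons (log2 fold change 3.17 ± 0.13, adjusted p = 1.07e-42), and satellite glia barcodes held it at 30.9 and 29.2 CPM. All 3 were higher in NP2 neurons in both libraries. A shared sign was common: of all 3907 genes that passed in this comparison, 24 had opposite signs in the 2 libraries. Deep members held Rspo1 at 78.1 and 156 CPM.

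Markers of other neuron classes were mostly lower in NP2 neurons, with exceptions. At an adjusted p under 0.05, 2 of 7 tested NP3 markers were higher and 5 lower, and the same held for 7 tested NP1 markers. Over all genes tested 12.2% were higher and 15.0% lower. The defining NP3 gene Nppb stood at 1.07 and 2.30 CPM in NP2 neurons, against 87.9 and 128 CPM in other neurons, and the removal of Sst cells from the class sends NP3 cells to the other side of this comparison. The A-fibre marker list (9 genes, all with UMIs) summed to 332 and 201 CPM in NP2 neurons, against 844 and 707 CPM in other neurons. A single member of library 1, with Mrgpra3 at 1.11 per 10000, held 657 of the 1554 UMIs of this list there, and without it, a setting chosen after seeing the data, the list summed to 197 CPM. Trpm8, the cold receptor, had 0 UMIs in NP2 neurons of either library. The NP1 list (8 genes) summed to 681 and 656 CPM in NP2 neurons, against 865 and 713 CPM in other neurons, and included Scn11a, which was higher in NP2 neurons. Macrophage markers (7 genes) summed to 24.4 and 6.90 CPM in NP2 neurons, against 16.8 and 23.4 CPM in other neurons.

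The first comparison asked which genes set NP2 neurons apart from all other neurons pooled. Of 14372 genes tested, 3907 passed an adjusted p of 0.05, which is 27.2%, with 1757 higher (12.2%) and 2150 lower (15.0%) in NP2 neurons and a median log2 fold change of -0.03 over all genes. Without the library term 1251 genes passed. The 4 sums leave 1 residual degree of freedom, so the p-values rest mostly on the spread shared over genes, and the values of both libraries are given for that reason. The cells were chosen in the same libraries by Mrgpra3, so these genes are ones that go with Mrgpra3 across neurons. In neurons of 40000 UMIs or more 3280 of 14062 genes passed (23.3%), 1352 higher (9.61%) and 1928 lower (13.7%), of which 3171 also passed with all cells, with the same sign.

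The genes with the largest folds in favour of NP2 were of several kinds. Hrh1, the histamine H1 receptor, stood at 28.02 and 20.0 CPM in NP2 neurons, against 1.32 and 0.895 CPM in other neurons (log2 fold change 4.57 ± 0.28, adjusted p = 4.23e-29). NP3 neurons, with 10.5 and 8.49 CPM, were the other gate with a level above 5 CPM. Adora2b, an adenosine receptor coupled to Gs, stood at 55.8 and 62.8 CPM in NP2 neurons, against 7.62 and 5.98 CPM in other neurons (log2 fold change 3.25 ± 0.15, adjusted p = 3.57e-39). Agtr1b, an angiotensin II receptor, stood at 35.9 and 25.6 CPM in NP2 neurons, against 4.39 and 5.11 CPM in other neurons (log2 fold change 2.85 ± 0.20, adjusted p = 1.96e-24). The 3 receptors were higher in NP2 neurons in each library, which the rule for naming genes requires.

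The largest fold among the named genes belonged to Cfap61, a gene of cilia and flagella, at 112 and 281 CPM in NP2 neurons, against 7.39 and 5.51 CPM in other neurons (log2 fold change 4.92 ± 0.16, adjusted p = 1.90e-52). Library 2 stood well above library 1 within NP2, and both stood above every other gate. Gda, the guanine deaminase that turns guanine into xanthine, stood at 163 and 116 CPM in NP2 neurons, against 13.8 and 12.8 CPM in other neurons (log2 fold change 3.52 ± 0.13, adjusted p = 3.30e-48), and Dpys, an enzyme of pyrimidine breakdown, at 29.1 and 28.6 CPM in NP2 neurons, against 2.65 and 2.38 CPM in other neurons (log2 fold change 3.65 ± 0.23, adjusted p = 1.82e-28). Ovol2, a zinc finger transcription factor, stood at 34.2 and 44.0 CPM in NP2 neurons, against 3.56 and 5.00 CPM in other neurons (log2 fold change 3.34 ± 0.19, adjusted p = 4.78e-32). In NP1 and NP3 neurons it was under 1 CPM in both libraries, and in Tac1 neurons it stood at 10.2 and 10.5 CPM. Crip1, a small LIM domain protein, stood at 569 and 463 CPM in NP2 neurons, against 61.4 and 65.0 CPM in other neurons (log2 fold change 3.17 ± 0.11, adjusted p = 2.81e-52), and Crip1 was also present in satellite glia barcodes at 918 and 482 CPM. Gm567, an unnamed gene, Tmprss11c, a membrane serine protease, and Mustn1, a small nuclear protein known from muscle and skeleton, had log2 fold changes of 4.66 ± 0.14, 4.21 ± 0.25 and 3.38 ± 0.16.

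Among the genes lowest in NP2 neurons against all others, there were several peptides and peptide receptors. Penk, the enkephalin precursor, had 0 UMIs in NP2 neurons, against 3952 UMIs in other neurons, so it was at least 90.0-fold lower by a floor of 3 counts over the class. Gal, the galanin gene, stood at 6.42 and 25.0 CPM in NP2 neurons, against 178 and 269 CPM in other neurons (log2 fold change -3.84 ± 0.16, adjusted p = 2.42e-44). Cartpt, a further neuropeptide, stood at 0.428 and 34.5 CPM in NP2 neurons, against 111 and 219 CPM in other neurons (log2 fold change -3.48 ± 0.20, adjusted p = 1.34e-30), and the 2 libraries differed within NP2. Nppb (-5.92 ± 0.23) and Nts, the neurotensin gene (-3.80 ± 0.21), are NP3 peptides, which the Sst rule moves to the other side. Npy2r, a receptor of neuropeptide Y and an NP3 gene, stood at 0.856 and 1.31 CPM in NP2 neurons, against 27.8 and 22.3 CPM in other neurons. Npy1r, a second such receptor, stood at 2.99 and 9.20 CPM in NP2 neurons, against 80.5 and 82.4 CPM in other neurons. Both were lower in NP2 neurons in each library, which the naming rule also requires. Kit, the stem cell factor receptor of peptidergic neurons, stood at 1.28 and 3.62 CPM in NP2 neurons, against 47.9 and 41.7 CPM in other neurons, and the cannabinoid receptor Cnr1 at 0.428 and 1.97 CPM in NP2 neurons, against 22.7 and 21.2 CPM in other neurons. Ache, the enzyme that ends acetylcholine signals, Nrp2, a semaphorin receptor, and Pcdh10, an adhesion protein, had log2 fold changes of -3.53 ± 0.19, -3.53 ± 0.24 and -3.47 ± 0.23.

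These calls depend on what makes up the other neurons: Tac1 neurons, for example, held 3737 of their 3952 Penk UMIs. Where NP1, NP3, Tac1 and the remaining neurons were weighted equally, 1345 of 14194 genes were higher and 899 lower, so that 59.9% of calls were higher. With these equal weights Gal, Npy1r and Cartpt had log2 fold changes of -1.29, -1.11 and -1.22 and did not pass (adjusted p = 0.0805, 0.187 and 0.229). Penk did not pass either (fitted log2 fold change -9.10, adjusted p = 0.177), nor by DESeq2 (-9.33, adjusted p = 0.112), and since it had 0 UMIs in NP2 neurons these fitted values are no bound. Without the library term Cartpt did not pass (log2 fold change -3.22, adjusted p = 0.140).

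**Figure D2:**
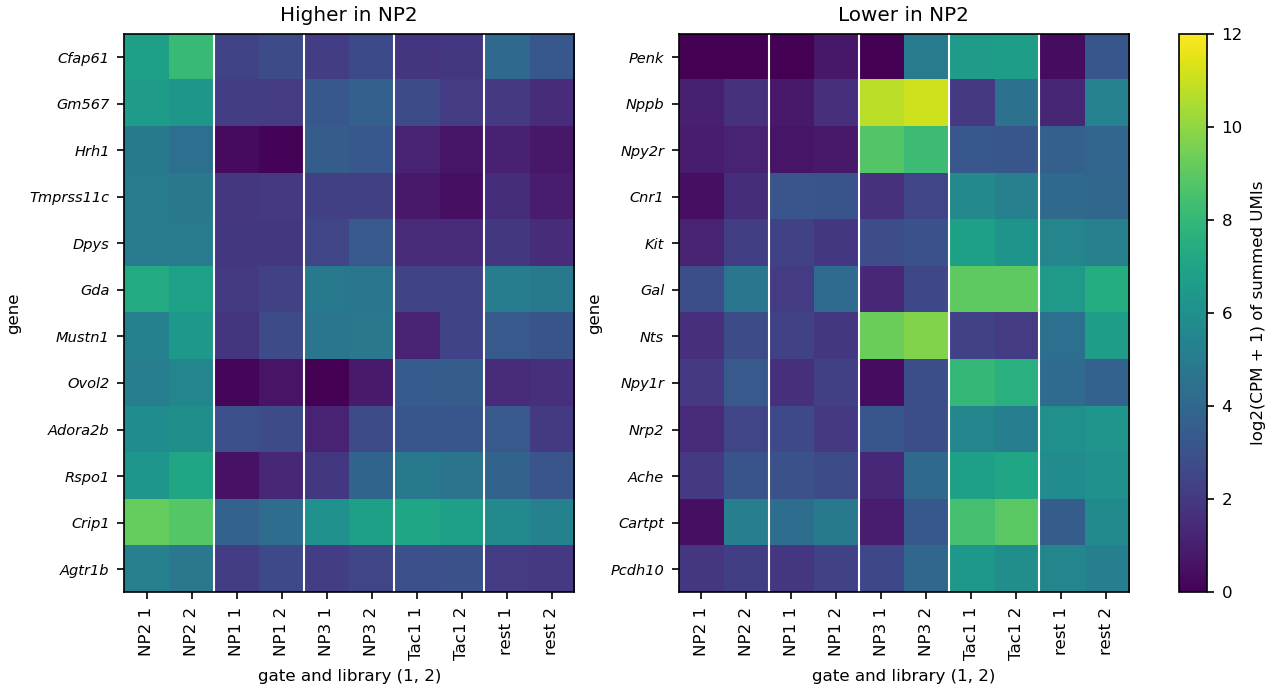
Levels, as log2(CPM + 1) of summed UMIs in colour, of the 12 named genes highest (left panel) and the 12 lowest (right panel) in NP2 neurons against all other neurons. Columns are the NP2, NP1, NP3, Tac1 and remaining (rest) neurons, each in libraries 1 and 2. Hrh1 stands at 28.02 and 20.0 CPM in NP2 and 10.5 and 8.49 CPM in NP3, and Penk is listed at 0 in NP2.

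Receptors that evoke itch split evenly. Of 35 listed genes 27 passed the filter on low counts, and 9 of these were higher, 9 lower and 9 not called, with a median log2 fold change of 0.24, against -0.03 over all genes. With the other gates weighted equally, 10 were higher and 4 lower of 28. Over all 14194 genes 1345 were higher and 899 lower at that setting, beside which each such count below is to be read. Members higher in NP2 neurons were receptors for histamine, nucleotides, cytokines and prostaglandin. P2ry2, a receptor for ATP and UTP, stood at 18.2 and 10.8 CPM in NP2 neurons, against 3.89 and 3.21 CPM in other neurons (log2 fold change 2.16 ± 0.26, adjusted p = 1.03e-11). Osmr, the oncostatin M receptor chain, stood at 93.5 and 61.8 CPM in NP2 neurons, against 37.4 and 31.9 CPM in other neurons (log2 fold change 1.29 ± 0.12, adjusted p = 2.19e-16), although NP3 neurons held it at 490.3 and 349.8 CPM. Il4ra, the interleukin 4 receptor chain, stood at 27.2 and 27.3 CPM in NP2 neurons, against 17.9 and 19.1 CPM in other neurons (log2 fold change 0.70 ± 0.16, adjusted p = 1.58e-04), and Ptgdr, the prostaglandin D2 receptor, at 33.2 and 34.8 CPM in NP2 neurons, against 25.9 and 20.7 CPM in other neurons (log2 fold change 0.67 ± 0.15, adjusted p = 9.11e-05). The differences of the last pair were small beside those of Hrh1 and Adora2b.

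Lower members were the receptors that mark other classes. Il31ra, the interleukin 31 receptor, stood at 3.85 and 1.64 CPM in NP2 neurons, against 22.7 and 17.6 CPM in other neurons (log2 fold change -2.68 ± 0.27, adjusted p = 8.11e-16), and Cysltr2, a leukotriene receptor, at 5.78 and 5.59 CPM in NP2 neurons, against 21.7 and 16.2 CPM in other neurons (log2 fold change -1.62 ± 0.23, adjusted p = 2.98e-09), both being NP3 genes that the Sst rule moves to the other side. S1pr3, a sphingosine 1-phosphate receptor, stood at 10.3 and 15.8 CPM in NP2 neurons, against 67.7 and 64.8 CPM in other neurons (log2 fold change -2.26 ± 0.16, adjusted p = 2.84e-24). The serotonin receptor Htr1b stood at 1.93 and 2.96 CPM in NP2 neurons, against 21.8 and 19.2 CPM in other neurons. Htr1f, a further serotonin receptor, had 3 UMIs in NP2 neurons, against 1756 UMIs in other neurons. Lpar3, a lysophosphatidic acid receptor of NP1 neurons, stood at 0.856 and 27.3 CPM in NP2 neurons, against 56.5 and 55.9 CPM in other neurons. Library 1 was near 0 for Lpar3 and library 2 was not, and the deep members of library 2 held 11.7 CPM of it and the shallow ones 85.9 CPM. Crlf2, a chain of the thymic stromal lymphopoietin receptor, stood at 24.2 and 24.3 CPM in NP2 neurons, against 22.03 and 23.2 CPM in other neurons and was not called (adjusted p = 0.271).

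Of the 20 Mas-related receptor genes, 7 passed the filter, 5 of them higher and 1 lower, with a median of 1.59. In cells of 40000 UMIs or more 3 were higher and 1 lower. Mrgpra2b, which lies beside Mrgpra3 in the cluster at chr7:47463806-47528862, stood at 50.7 and 64.4 CPM in NP2 neurons, against 21.0 and 20.7 CPM in other neurons (log2 fold change 1.59 ± 0.13, adjusted p = 7.43e-20), and Mrgpra2a at 16.9 and 25.3 CPM in NP2 neurons, against 8.34 and 9.01 CPM in other neurons (log2 fold change 1.39 ± 0.20, adjusted p = 5.80e-09). Their reads cannot be told apart with certainty from those of near-identical copies. Against NP1 neurons neither passed (log2 fold changes 0.38 ± 0.16 and 0.21 ± 0.21, adjusted p = 0.161 and 0.597). Mrgprd stood at 22.7 and 17.1 CPM in NP2 neurons, against 88.5 and 50.9 CPM in other neurons (log2 fold change -1.67 ± 0.15, adjusted p = 1.68e-18).

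**Figure D3:**
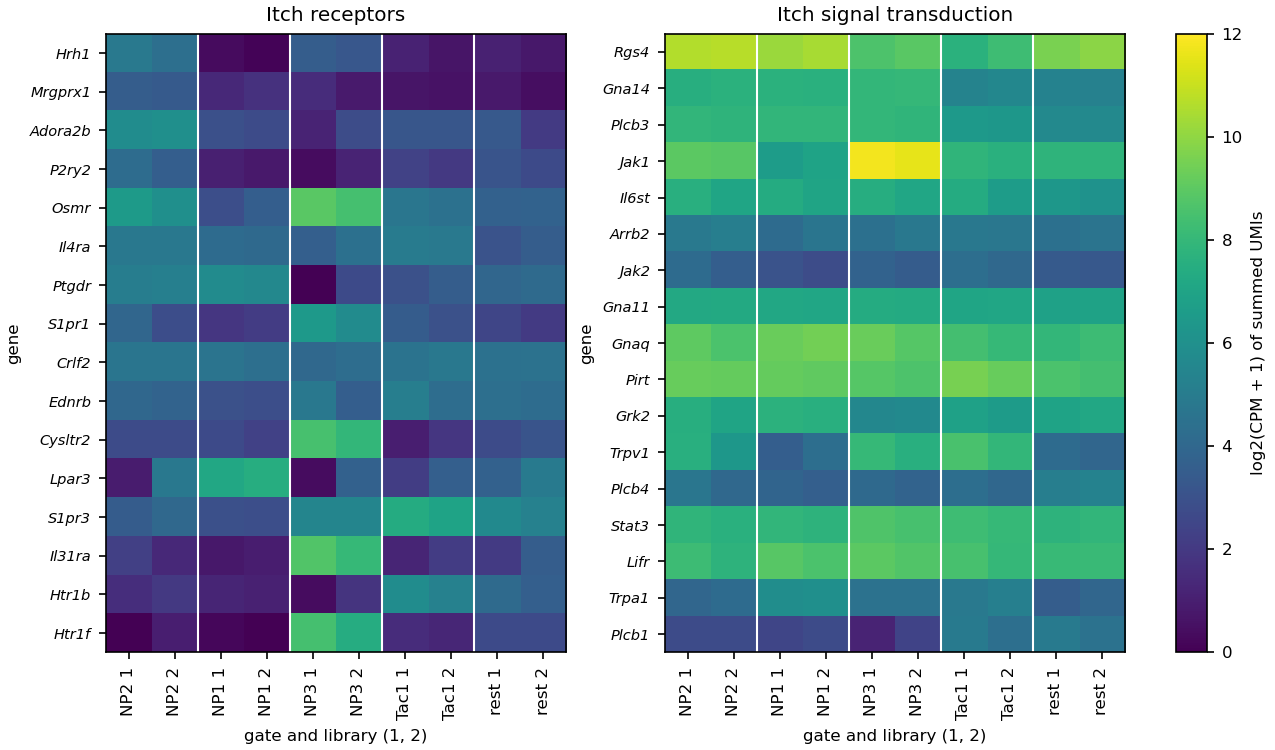
Levels, as log2(CPM + 1) in colour, of listed itch receptors (left) and itch signalling genes (right) reported here at 10 CPM or more in NP2 or in other neurons, sorted by their log2 fold change, NP2 over other. Columns are gates and libraries, with NP2 first; Osmr is brightest in NP3 at 490 and 350 CPM, while Adora2b is brightest in NP2 at 55.8 and 62.8 CPM.

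Genes that pass the itch signal on leaned towards NP2. Of 20 tested members of 22, 10 were higher and 3 lower, with a median of 0.30. Gna14, an alpha subunit of the Gq family, stood at 184 and 204 CPM in NP2 neurons, against 107 and 88.7 CPM in other neurons (log2 fold change 1.13 ± 0.11, adjusted p = 1.41e-16). Plcb3, the phospholipase C beta that acts in histamine itch, stood at 238 and 219 CPM in NP2 neurons, against 136 and 114 CPM in other neurons (log2 fold change 1.01 ± 0.10, adjusted p = 5.00e-15). Rgs4, which speeds the switching off of G proteins, stood at 1555 and 1680.1 CPM in NP2 neurons, against 733 and 776 CPM in other neurons (log2 fold change 1.24 ± 0.09, adjusted p = 6.85e-23). None of the 3 passed against NP1 neurons: the log2 fold changes of NP2 over NP1 were -0.12 ± 0.12, -0.14 ± 0.10 and 0.26 ± 0.14, with adjusted p of 0.579, 0.437 and 0.268. Jak1, a kinase of cytokine receptors, stood at 506 and 468 CPM in NP2 neurons, against 342 and 320.0 CPM in other neurons (log2 fold change 0.70 ± 0.09, adjusted p = 7.69e-10).

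The TRP channels to which this signal is passed did not go together. Trpv1, the capsaicin receptor, stood at 191 and 79.5 CPM in NP2 neurons, against 132 and 115 CPM in other neurons and was not called (log2 fold change 0.19 ± 0.12, adjusted p = 0.264). NP2 neurons of library 1 stood above other neurons and those of library 2 below them. Trpa1, the irritant receptor, stood at 14.3 and 17.1 CPM in NP2 neurons, against 32.9 and 34.3 CPM in other neurons (log2 fold change -0.97 ± 0.16, adjusted p = 3.92e-07), lower in both libraries. Trpc6 stood at 23.5 and 28.3 CPM in NP2 neurons, against 13.5 and 11.1 CPM in other neurons (log2 fold change 1.20 ± 0.17, adjusted p = 7.50e-09). Of 16 tested TRP genes of 18, 3 were higher and 6 lower, with a median of -0.43, and with equal weights 4 were higher and 2 lower.

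Peptide genes were mostly lower, with a CGRP gene among the higher ones. Of 22 tested neuropeptide and granin genes of 27, 5 were higher and 13 lower, with a median of -1.10. With the gates weighted equally, 7 were higher and 4 lower of 21, at a setting where 59.9% of calls over all genes were higher. Calca, which encodes CGRP, stood at 9922 and 9772 CPM in NP2 neurons, against 4666 and 6802 CPM in other neurons (log2 fold change 0.94 ± 0.10, adjusted p = 3.79e-15), but did not pass without the library term (log2 fold change 0.92, adjusted p = 0.0538). Satellite glia barcodes held Calca at 192 and 294 CPM. Tac1 stood at 148 and 380.3 CPM in NP2 neurons, against 1605 and 2371 CPM in other neurons (log2 fold change -2.89 ± 0.11, adjusted p = 7.45e-47). Without the shallow cells it stood at 148 and 214 CPM in NP2 neurons. Adcyap1, the PACAP gene, stood at 23.5 and 61.8 CPM in NP2 neurons, against 286 and 377 CPM in other neurons (log2 fold change -2.93 ± 0.13, adjusted p = 6.96e-41), and Scg2, a granin, at 199 and 260.3 CPM in NP2 neurons, against 449.8 and 591 CPM in other neurons (log2 fold change -1.04 ± 0.10, adjusted p = 4.69e-17). Pcsk2, a convertase that cuts peptide precursors, stood at 362 and 217 CPM in NP2 neurons, against 225 and 122 CPM in other neurons (log2 fold change 0.89 ± 0.10, adjusted p = 3.98e-13), higher in both libraries. Without the library term 0 of the 22 tested genes of this list were called higher and 8 lower.

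G-protein-coupled receptors that quiet neurons were mostly lower. Of 19 tested of 22, 1 was higher and 13 were lower, with a median of -2.84, or -2.62 with a gene at 0 UMIs put at its bound. With equal weights 7 were lower. Sstr2, a somatostatin receptor, stood at 0 and 2.96 CPM in NP2 neurons, against 19.4 and 30.7 CPM in other neurons, and Adra2c, an alpha-2 adrenoceptor, at 2.99 and 1.97 CPM in NP2 neurons, against 15.7 and 13.8 CPM in other neurons. The member that was higher was Galr1, a galanin receptor, at 12.8 and 14.8 CPM in NP2 neurons, against 7.90 and 6.55 CPM in other neurons (log2 fold change 1.06 ± 0.23, adjusted p = 1.13e-04).

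Channel families showed a few high members among many low ones. Of 18 sodium channel genes, all tested, 5 were higher and 11 lower (median -1.13), and with equal weights 5 were higher and 5 lower. Scn11a, which encodes the persistent channel Nav1.9, stood at 479 and 413 CPM in NP2 neurons, against 283 and 222 CPM in other neurons (log2 fold change 0.97 ± 0.10, adjusted p = 1.30e-15), and Scn10a, for Nav1.8, at 419 and 374 CPM in NP2 neurons, against 334 and 265 CPM in other neurons (log2 fold change 0.55 ± 0.10, adjusted p = 1.23e-06). Scn1a, for Nav1.1 of large neurons, stood at 6.84 and 3.62 CPM in NP2 neurons, against 33.9 and 34.1 CPM in other neurons (log2 fold change -2.50 ± 0.21, adjusted p = 3.37e-20). Scn9a, for Nav1.7, stood at 340.1 and 242 CPM in NP2 neurons, against 336 and 279 CPM in other neurons and was not called (adjusted p = 0.784). Against all other neurons pooled, the genes of Nav1.8 and Nav1.9 were thus higher in both libraries, and that of Nav1.7 was not called. Against NP1 neurons alone, in a fit described below, 2 of 18 sodium channel genes were higher and 1 lower. Over all genes 7.48% were higher and 6.90% lower there. None of the 6 tested NP1 markers, a list that includes Scn11a, was higher in NP2 than in NP1 neurons.

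Of 57 tested potassium channel genes of 59, 9 were higher and 27 lower (median -0.50), and with equal weights 12 were higher and 15 lower of 58 (median -0.28). Kcnk18, the leak channel TRESK, stood at 45.1 and 70.3 CPM in NP2 neurons, against 15.9 and 12.6 CPM in other neurons (log2 fold change 2.12 ± 0.15, adjusted p = 1.94e-25). Kcnmb1, a beta subunit of calcium-activated BK channels, stood at 287 and 363 CPM in NP2 neurons, against 74.4 and 120.3 CPM in other neurons (log2 fold change 1.91 ± 0.10, adjusted p = 2.46e-33), and Kcnn2, a small calcium-activated channel, at 42.4 and 22.02 CPM in NP2 neurons, against 10.1 and 8.63 CPM in other neurons (log2 fold change 1.91 ± 0.17, adjusted p = 1.11e-17). Kcnma1, the BK pore, was lower at 32.9 and 25.3 CPM in NP2 neurons, against 74.7 and 60.2 CPM in other neurons (log2 fold change -1.08 ± 0.14, adjusted p = 6.12e-11). Kcna1 and Kcna2, voltage-gated channels of large axons, had log2 fold changes of -2.60 ± 0.18 and -1.36 ± 0.13.

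Among calcium channel genes 3 of 17 tested were higher and 9 lower (median -0.56), and with equal weights 2 were higher and 3 lower. Cacng2, a subunit that also traffics AMPA receptors, stood at 43.6 and 35.8 CPM in NP2 neurons, against 15.1 and 11.4 CPM in other neurons (log2 fold change 1.73 ± 0.15, adjusted p = 8.49e-19), and Cacna1h, the T-type channel of touch neurons, at 3.64 and 2.96 CPM in NP2 neurons, against 17.0 and 24.0 CPM in other neurons (log2 fold change -2.42 ± 0.26, adjusted p = 2.11e-14). Of 13 tested mechanosensitive and acid-sensing genes, 3 were higher and 5 lower (median 0.02), and with equal weights 3 were higher and 2 lower. Piezo2, the main touch channel, stood at 144 and 87.4 CPM in NP2 neurons, against 276 and 309 CPM in other neurons (log2 fold change -1.21 ± 0.11, adjusted p = 4.52e-17), and Asic3 at 5.78 and 2.30 CPM in NP2 neurons, against 25.0 and 44.3 CPM in other neurons (log2 fold change -2.75 ± 0.23, adjusted p = 2.93e-20). With equal weights Piezo2 and Cacna1h did not pass.

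ATP and adenosine receptors were found on both sides. Of 12 tested of 18, 5 were higher and 4 lower (median 0.18), and with equal weights 5 were higher and 1 lower of 13. Besides Adora2b and P2ry2, the ATP-gated channel genes P2rx2 and P2rx3 were higher. P2rx2 stood at 15.2 and 16.1 CPM in NP2 neurons, against 4.80 and 7.02 CPM in other neurons. P2rx3 stood at 28.9 and 21.0 CPM in NP2 neurons, against 22.7 and 12.1 CPM in other neurons. Adora1, which couples to Gi, stood at 17.97 and 21.0 CPM in NP2 neurons, against 59.4 and 57.5 CPM in other neurons (log2 fold change -1.46 ± 0.15, adjusted p = 2.46e-15). Glutamate receptors were 2 higher and 9 lower of 17 tested (median -0.95), and with equal weights 2 higher and 4 lower (median -0.35). GABA receptors were 0 higher and 9 lower of 12 tested (median -1.24, or -0.99 with a gene at 0 UMIs put at its bound), and with equal weights 1 was lower. In cells of 40000 UMIs or more 6 GABA receptor genes were lower. Prostaglandin and leukotriene genes were 1 higher and 4 lower of 13 tested (median -0.99), and with equal weights 2 higher and 1 lower of 14.

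Transcription factors known from sensory neurons moved in both directions. Of 48 tested of 51, 11 were higher and 22 lower (median -0.49), and with equal weights 11 were higher and 7 lower of 47. Etv1, an ETS factor, stood at 421 and 353 CPM in NP2 neurons, against 80.7 and 55.6 CPM in other neurons (log2 fold change 2.66 ± 0.11, adjusted p = 3.66e-45), well apart from other neurons. Glial barcodes held Etv1 at 101 and 63.6 CPM. Plagl1, a zinc finger factor, stood at 64.4 and 69.7 CPM in NP2 neurons, against 27.4 and 35.9 CPM in other neurons (log2 fold change 1.24 ± 0.13, adjusted p = 2.69e-15), and Isl2 at 399 and 528 CPM in NP2 neurons, against 243 and 292 CPM in other neurons (log2 fold change 0.92 ± 0.10, adjusted p = 8.54e-15). Runx1, which directs the non-peptidergic lineage, stood at 70.6 and 89.4 CPM in NP2 neurons, against 179.8 and 228 CPM in other neurons (log2 fold change -1.21 ± 0.11, adjusted p = 1.95e-17), lower in both libraries. Pou4f3, Hmx1 and Bcl11a were each under 2 CPM in NP2 neurons in both libraries, against 10.6 to 20.9 CPM in other neurons.

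Growth factor receptors moved in both directions. Of 14 tested of 17, 4 were higher and 8 lower (median -0.48), and with equal weights 4 were higher and 5 lower of 15. Ret, the shared GDNF family receptor, stood at 332 and 280.0 CPM in NP2 neurons, against 336 and 335 CPM in other neurons and was not called (adjusted p = 0.987). Gfra2, which binds neurturin, stood at 19.5 and 59.8 CPM in NP2 neurons, against 155 and 223 CPM in other neurons. Gfra3, which binds artemin, stood at 18.4 and 43.4 CPM in NP2 neurons, against 77.3 and 128 CPM in other neurons. Of 46 tested guidance and adhesion genes of 51, 10 were higher and 23 lower (median -1.24, or -1.20 with a gene at 0 UMIs put at its bound), and with equal weights 10 were higher and 9 lower (median -0.36). Unc5d, a netrin receptor, stood at 29.1 and 16.1 CPM in NP2 neurons, against 5.94 and 6.00 CPM in other neurons (log2 fold change 2.05 ± 0.21, adjusted p = 1.05e-14), Sema3c, a secreted semaphorin, at 28.2 and 23.7 CPM in NP2 neurons, against 8.59 and 8.57 CPM in other neurons (log2 fold change 1.74 ± 0.19, adjusted p = 4.53e-14), and Plxnc1 at 267 and 227 CPM in NP2 neurons, against 161 and 127 CPM in other neurons (log2 fold change 0.92 ± 0.10, adjusted p = 1.85e-13).

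Few oxidative phosphorylation genes passed. Of 36 oxidative phosphorylation genes tested, 1 was higher and 1 lower (median -0.03). Of 35 synaptic release genes, 4 were higher and 18 lower (median -0.34), and with equal weights 4 were higher and 5 lower (median -0.02). Syt5, a synaptotagmin, stood at 167 and 225 CPM in NP2 neurons, against 92.9 and 123 CPM in other neurons (log2 fold change 1.00 ± 0.11, adjusted p = 2.04e-14). Of 16 neurofilament and cytoskeleton genes, 7 were higher and 5 lower (median 0.18). With equal weights 6 of these were higher and 0 lower, and without the library term 1 was higher and 1 lower. Nefh, the heavy neurofilament of large neurons, stood at 183 and 84.8 CPM in NP2 neurons, against 491 and 359.6 CPM in other neurons (log2 fold change -1.59 ± 0.11, adjusted p = 7.95e-26). The same member that held much of the A-fibre list held 429 of the 854 Nefh UMIs of NP2 neurons in library 1, and without it Nefh stood at 93.4 CPM there.

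Immediate early genes, which rise with activity and with handling of tissue, were lower where they differed. Of 22 tested, 0 were higher and 9 lower (median -0.33), and with equal weights 5 were lower. Satellite glia markers summed to 1073 and 1605 CPM in NP2 neurons, against 1997 and 2031 CPM in other neurons, with 0 of 8 markers higher and 4 lower, and the part of glial transcripts in the immediate early genes was not tested. Fos stood at 49.6 and 288 CPM in NP2 neurons, against 111 and 351 CPM in other neurons (log2 fold change -0.53 ± 0.11, adjusted p = 7.97e-05), and library 2 stood above library 1 in both groups. Egr1 stood at 10.1 and 51.6 CPM in NP2 neurons, against 40.8 and 101 CPM in other neurons (log2 fold change -1.23 ± 0.15, adjusted p = 7.86e-12) and Jun at 126 and 164 CPM in NP2 neurons, against 212 and 279 CPM in other neurons (log2 fold change -0.62 ± 0.10, adjusted p = 3.18e-07). Without the library term 1 gene of the list was lower. Against NP1 neurons, in the fit described next, 4 of 22 were higher and 1 lower (median 0.34), and the glia markers summed to 781 and 949 CPM in NP1 neurons. Glial barcodes held Fos at 1203 and 4574 CPM. Of 19 tested injury and regeneration genes of 20, 1 was higher and 14 lower (median -1.42), and with equal weights 2 were higher and 6 lower (median -0.99). Atf3, which injury induces, stood at 34.4 and 140.0 CPM in NP2 neurons, against 57.9 and 181 CPM in other neurons (log2 fold change -0.40 ± 0.12, adjusted p = 0.00610). Sprr1a had 2 UMIs in NP2 neurons, against 2945 UMIs in other neurons, a ratio of 101 in favour of other neurons (exact 95% counting interval 27.8 to 831). Gap43, a growth cone protein, was the higher member, at 755 and 731 CPM in NP2 neurons, against 513 and 499.9 CPM in other neurons (log2 fold change 0.69 ± 0.09, adjusted p = 5.33e-10).

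The count of calls within a list depended on the library term, as did the count over all genes. Without it, 428 of all 14372 genes were higher and 823 lower, beside which such list counts are to be read. Of 20 itch signalling genes 4 were then higher and 2 lower, and of 22 neuropeptide genes 0 were higher and 8 lower. Of 19 injury genes 1 was higher and 7 lower, and of 35 synaptic genes 1 was higher and 9 lower. None of 36 oxidative phosphorylation genes passed. Of 27 itch receptors 8 were higher and 7 lower, and of 19 inhibitory receptors 1 was higher and 12 lower.

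**Figure D4:**
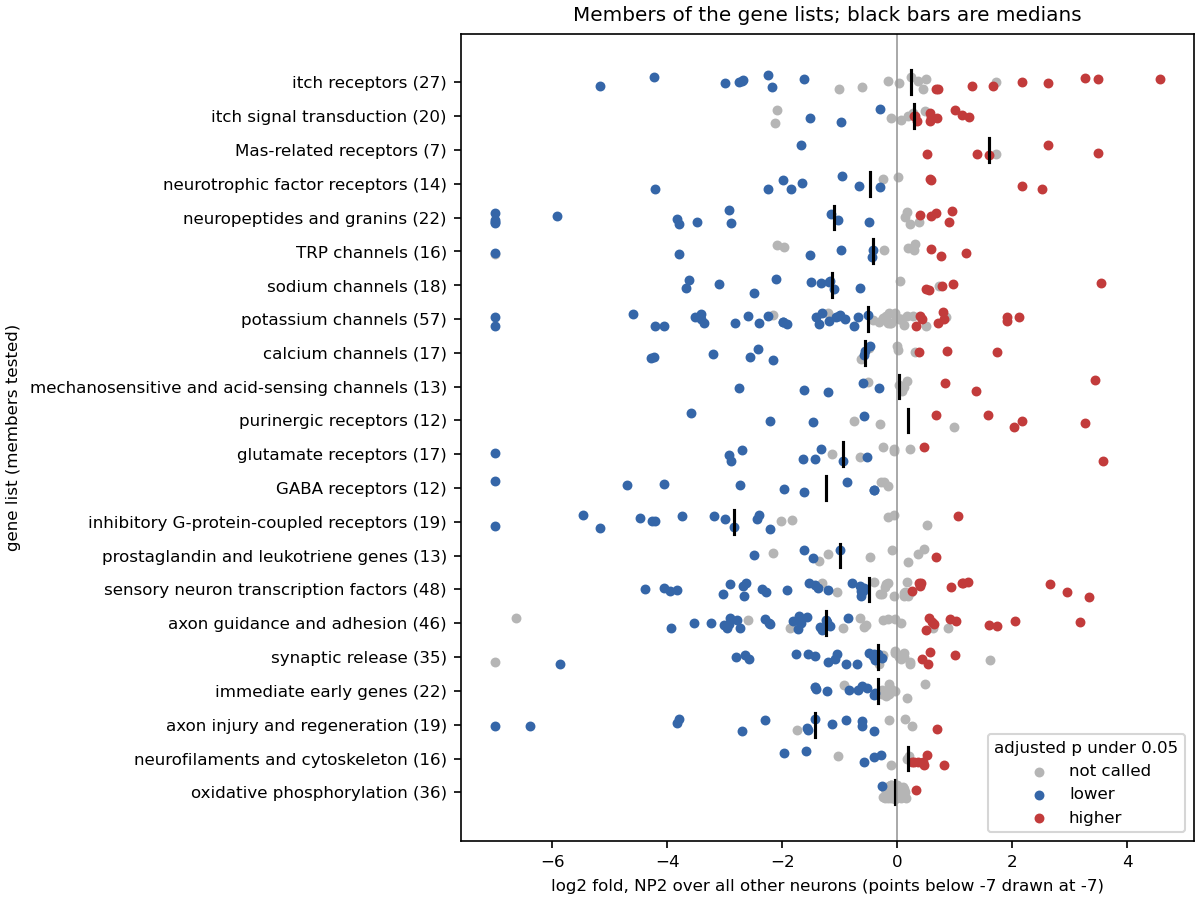
Log2 fold changes, NP2 over all other neurons, of the tested members of 22 gene lists, 1 point per gene, red for higher, blue for lower and grey for not called at an adjusted p of 0.05, with black bars at the list medians and points below -7 drawn at -7. Inhibitory receptors have the lowest median at -2.84 and Mas-related receptors the highest at 1.59.

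NP2 neurons were next set against NP1 neurons, taken as Mrgprd at 1 or more per 10000 with Mrgpra3 and Sst below 1 (157 cells in each library). Of 14194 genes 2041 passed (14.4%), 1062 higher (7.48%) and 979 lower (6.90%), and 1234 passed without the library term. This fit held 5 gates and 10 sums, with 4 residual degrees of freedom. Ovol2 stood at 34.2 and 44.0 CPM in NP2 neurons, against 0.131 and 0.526 CPM in NP1 neurons (log2 fold change 7.01 ± 0.38, adjusted p = 1.24e-06), Rspo1 at 78.1 and 137 CPM in NP2 neurons, against 0.482 and 1.49 CPM in NP1 neurons (log2 fold change 6.84 ± 0.54, adjusted p = 1.47e-05) and Hrh1 at 28.02 and 20.0 CPM in NP2 neurons, against 0.263 and 0.0877 CPM in NP1 neurons (log2 fold change 6.84 ± 0.37, adjusted p = 1.15e-06). Slc8a1, the sodium-calcium exchanger, stood at 30.6 and 24.3 CPM in NP2 neurons, against 0.482 and 0.526 CPM in NP1 neurons (log2 fold change 5.69 ± 0.29, adjusted p = 9.30e-07), and Cdhr1, a cadherin-related protein of photoreceptors, at 93.3 and 56.2 CPM in NP2 neurons, against 1.93 and 2.37 CPM in NP1 neurons (log2 fold change 5.09 ± 0.26, adjusted p = 8.66e-07). Gda, Cfap61 and Crip1 were the other named genes higher in NP2, with log2 fold changes of 5.23 ± 0.20, 5.10 ± 0.42 and 4.98 ± 0.28.

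Signalling genes differed between NP2 and NP1 neurons too. Etv1 stood at 421 and 353 CPM in NP2 neurons, against 11.5 and 17.4 CPM in NP1 neurons (log2 fold change 4.66 ± 0.35, adjusted p = 1.38e-05), and Galr1 at 12.8 and 14.8 CPM in NP2 neurons, against 0.219 and 0.175 CPM in NP1 neurons (log2 fold change 6.01 ± 0.53, adjusted p = 5.50e-05). Trpv1 stood at 191 and 79.5 CPM in NP2 neurons, against 11.1 and 19.5 CPM in NP1 neurons (log2 fold change 3.02 ± 0.35, adjusted p = 1.84e-04) and Trpa1 at 14.3 and 17.1 CPM in NP2 neurons, against 57.5 and 61.9 CPM in NP1 neurons (log2 fold change -2.02 ± 0.16, adjusted p = 1.96e-05), so the 2 channels lay on opposite sides. P2rx2 stood at 15.2 and 16.1 CPM in NP2 neurons, against 0.263 and 0.614 CPM in NP1 neurons (log2 fold change 5.19 ± 0.35, adjusted p = 4.69e-06), and P2rx3 at 28.9 and 21.0 CPM in NP2 neurons, against 50.01 and 26.4 CPM in NP1 neurons, which was not called (adjusted p = 0.1001). Calca stood at 9922 and 9772 CPM in NP2 neurons, against 1462 and 1840.2 CPM in NP1 neurons (log2 fold change 2.51 ± 0.36, adjusted p = 7.24e-04). Of 28 tested itch receptors 12 were higher and 2 lower in NP2 neurons (median 0.94, against -0.03 over all genes), and of 20 signalling genes 3 were higher and 4 lower (median 0.01).

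Of the genes lowest in NP2 against NP1 neurons, several had more transcripts in library 2, where the shallow cells lie. Gm765, an unnamed gene, stood at 1.71 and 52.9 CPM in NP2 neurons, against 410.1 and 386 CPM in NP1 neurons (log2 fold change -4.46 ± 0.71, adjusted p = 0.00147), and deep members held it at 1.71 and 25.0 CPM. Prkcq, a protein kinase C, stood at 0.428 and 21.0 CPM in NP2 neurons, against 166 and 140.4 CPM in NP1 neurons, and at 0.428 and 11.2 CPM in deep members. Lpar3 stood at 0.856 and 27.3 CPM in NP2 neurons, against 145 and 179 CPM in NP1 neurons (log2 fold change -4.11 ± 0.60, adjusted p = 8.21e-04) and did not pass without the library term (log2 fold change -3.74, adjusted p = 0.0602). Nupr1, a stress response gene, Mlip, a lamin-binding protein, Prmt8, an arginine methyltransferase, Kcnab1, a potassium channel subunit, and Cdh11, a cadherin, had log2 fold changes of -4.40 ± 0.56, -3.75 ± 0.33, -3.58 ± 0.45, -3.57 ± 0.36 and -3.45 ± 0.27. In neurons of 40000 UMIs or more, where 2285 of 13981 genes passed (16.3%), 1187 higher (8.49%) and 1098 lower (7.85%), these 5 were -5.04, -4.15, -4.12, -4.17 and -4.00. NP2 stood below NP1 in both libraries for each of the 8, which the rule for naming genes requires.

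Against NP3 neurons (Sst and Nppb at 1 or more per 10000, 31 and 49 cells) 2920 genes passed (20.6%), 1571 higher (11.1%) and 1349 lower (9.50%) in NP2 neurons, and 1869 passed without the library term. Ovol2 had 294 UMIs in NP2 neurons and 2 in NP3 neurons, a ratio of 105 (exact 95% counting interval 28.7 to 868). Calca stood at 9922 and 9772 CPM in NP2 neurons, against 186 and 634 CPM in NP3 neurons (log2 fold change 4.85 ± 0.41, adjusted p = 1.78e-05), and Calcb, the second CGRP gene, at 462 and 654 CPM in NP2 neurons, against 20.4 and 119 CPM in NP3 neurons (log2 fold change 3.31 ± 0.45, adjusted p = 4.41e-04). Both were higher in NP2 neurons in each library. Rgs5, a regulator of G-protein signalling, stood at 317 and 228 CPM in NP2 neurons, against 1.59 and 16.1 CPM in NP3 neurons (log2 fold change 5.34 ± 0.57, adjusted p = 8.61e-05), and is also a pericyte gene. Ly86, which pairs with an immune receptor of the Toll-like kind, stood at 937 and 807 CPM in NP2 neurons, against 18.2 and 39.5 CPM in NP3 neurons (log2 fold change 5.14 ± 0.31, adjusted p = 2.35e-06). Cdk15, a kinase, Klhdc8a, a kelch protein, Ccn3, a matrix protein, Efcab10, an EF-hand protein, and Cfap61 had log2 fold changes of 5.72 ± 0.51, 5.18 ± 0.40, 4.98 ± 0.55, 4.97 ± 0.34 and 5.56 ± 0.54. Plagl1 stood at 64.4 and 69.7 CPM in NP2 neurons, against 0.637 and 4.67 CPM in NP3 neurons (log2 fold change 4.96 ± 0.34, adjusted p = 4.53e-06).

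The itch classes had different receptors. NP2 neurons were higher for Adora2b, at 55.8 and 62.8 CPM in NP2 neurons, against 1.27 and 5.94 CPM in NP3 neurons (log2 fold change 4.32 ± 0.56, adjusted p = 3.42e-04), for P2ry2, at 18.2 and 10.8 CPM in NP2 neurons, against 0.319 and 1.27 CPM in NP3 neurons (log2 fold change 4.46 ± 0.49, adjusted p = 1.07e-04), and for Ptgdr, at 33.2 and 34.8 CPM in NP2 neurons, against 0 and 5.52 CPM in NP3 neurons (log2 fold change 3.98 ± 0.57, adjusted p = 5.89e-04). Hrh1 was higher by 1.50 ± 0.28 (adjusted p = 0.00304). NP3 neurons held more Il31ra, with 3.85 and 1.64 CPM in NP2 neurons, against 429 and 263 CPM in NP3 neurons, more Cysltr2, with 5.78 and 5.59 CPM in NP2 neurons, against 359.6 and 244 CPM in NP3 neurons, and more Jak1, with 506 and 468 CPM in NP2 neurons, against 3504 and 2976 CPM in NP3 neurons. F2rl1, the protease receptor PAR2, stood at 1.07 and 0.329 CPM in NP2 neurons, against 22.6 and 15.3 CPM in NP3 neurons (log2 fold change -4.52 ± 0.59, adjusted p = 3.36e-04). Of 28 tested itch receptors 8 were higher and 11 lower (median 0.47, against 0.01 over all genes). Trpv1 was not called, at 191 and 79.5 CPM in NP2 neurons, against 262 and 188 CPM in NP3 neurons (adjusted p = 0.205).

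The genes lowest in NP2 against NP3 neurons were close to absent from NP2. Gm525, an unnamed gene, had 0 UMIs in NP2 neurons, against 1845 in NP3 neurons, at least 864-fold lower. Htr1f had 3 UMIs in NP2 neurons, against 1497 in NP3 neurons, a ratio of 701 in favour of NP3 (239 to 3403). Pde4c, a cyclic AMP phosphodiesterase, had 1 UMI, against 567, a ratio of 796 (142 to 31511), and Ptafr, the platelet-activating factor receptor, 2 UMIs, against 373, a ratio of 262 (72.0 to 2171). Npy2r, Gpr139, an orphan receptor, Ptprk, a receptor phosphatase, and Nts had log2 fold changes of -8.31 ± 0.31, -8.00 ± 0.47, -7.58 ± 0.32 and -7.53 ± 0.65.

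Of 22 immediate early genes tested against NP3 neurons, 1 was higher, 8 were lower and 13 were not called (median -0.54), with Jun at 126 and 164 CPM in NP2 neurons, against 535 and 566 CPM in NP3 neurons (log2 fold change -1.78 ± 0.12, adjusted p = 4.17e-06) and Atf3 at 34.4 and 140.0 CPM in NP2 neurons, against 154 and 424 CPM in NP3 neurons (log2 fold change -1.69 ± 0.17, adjusted p = 6.22e-05). Satellite glia markers summed to 1073 and 1605 CPM in NP2 neurons, against 2119 and 2106 CPM in NP3 neurons. The part of glial transcripts in these genes was not tested.

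The third comparison was with Tac1 neurons (Tac1 at 5 or more per 10000, with Mrgprd, Mrgpra3 and Sst below 1, 225 and 408 cells). Here 3767 genes passed (26.5%), 1841 higher and 1926 lower (13.6%) in NP2 neurons, and 2445 passed without the library term. Named genes higher in NP2 were Cfap61 (6.32 ± 0.45), Tmprss11c (5.76 ± 0.35), Gda (5.17 ± 0.19), Hrh1 (4.90 ± 0.29), Mustn1 (4.58 ± 0.41) and Gm567 (4.44 ± 0.23). A3galt2, a glycosyltransferase, stood at 38.7 and 33.5 CPM in NP2 neurons, against 1.02 and 2.50 CPM in Tac1 neurons (log2 fold change 4.53 ± 0.32, adjusted p = 6.07e-06), and Moxd1, a monooxygenase-like protein, at 57.1 and 58.2 CPM in NP2 neurons, against 1.77 and 4.13 CPM in Tac1 neurons (log2 fold change 4.47 ± 0.34, adjusted p = 9.32e-06). NP1 and NP3 neurons held A3galt2 at 48.0 and 54.5 CPM and at 41.1 and 34.8 CPM, and NP1 neurons held Moxd1 at 36.6 and 40.8 CPM.

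Gna14 and Plcb3, of the Gq pathway, were higher in NP2 than in Tac1 neurons. Gna14 stood at 184 and 204 CPM in NP2 neurons, against 40.7 and 46.1 CPM in Tac1 neurons (log2 fold change 2.34 ± 0.12, adjusted p = 2.21e-06) and Plcb3 at 238 and 219 CPM in NP2 neurons, against 85.5 and 79.8 CPM in Tac1 neurons (log2 fold change 1.65 ± 0.11, adjusted p = 4.59e-06). P2rx3 stood at 28.9 and 21.0 CPM in NP2 neurons, against 5.74 and 6.73 CPM in Tac1 neurons (log2 fold change 2.16 ± 0.28, adjusted p = 2.37e-04), and Klf5, a zinc finger factor, at 102 and 91.4 CPM in NP2 neurons, against 19.6 and 24.7 CPM in Tac1 neurons (log2 fold change 2.30 ± 0.18, adjusted p = 1.16e-05). Trpv1 was lower, at 191 and 79.5 CPM in NP2 neurons, against 377 and 242 CPM in Tac1 neurons (log2 fold change -1.03 ± 0.31, adjusted p = 0.0306). Of 20 tested itch signalling genes 9 were higher and 3 lower (median 0.39, against -0.04 over all genes), and of 20 inhibitory receptors 0 were higher and 13 lower (median -2.95).

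The genes lowest in NP2 against Tac1 neurons were not all particular to Tac1 neurons. The remaining neurons held Rab3b at 21.4 and 25.7 CPM and Kit at 43.4 and 37.0 CPM. Penk was at least 251-fold lower, with 0 UMIs in NP2 neurons and 3737 in Tac1 neurons. Rab3b, a vesicle protein, had 2 UMIs in NP2 neurons, against 1007 in Tac1 neurons, a ratio of 102 in favour of Tac1 (28.05 to 840), and Ighm, an immunoglobulin heavy chain gene, 3 UMIs, against 828, a ratio of 55.7 (19.0 to 271). Sstr2 stood at 0 and 2.96 CPM in NP2 neurons, against 64.2 and 75.1 CPM in Tac1 neurons (log2 fold change -5.67 ± 0.50, adjusted p = 2.21e-05), and deep members held 0 in both libraries. Kcnmb2, a BK channel subunit, Hmx1, a homeobox factor, Masp1, a complement protease, and Kit had log2 fold changes of -5.41 ± 0.52, -5.24 ± 0.48, -5.22 ± 0.35 and -5.20 ± 0.32. Of 22 immediate early genes 0 were higher and 11 lower (median -0.95). Satellite glia markers summed to 1073 and 1605 CPM in NP2 neurons, against 3048 and 2479 CPM in Tac1 neurons, with 0 of 8 higher and 3 lower, and the part of glial transcripts in these genes was not tested.

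Deep members also differed among themselves, although their depth was not held equal. Spearman's rho between Tac1 and UMIs per cell was -0.35 in library 1 and -0.006 in library 2. Of the deep members, 4 of 32 in library 1 and 5 of 28 in library 2 held Tac1 at 5 or more UMIs per 10000, a split chosen after the values were seen and given as a description without a test. These cells held Calca at 16165 and 15496 CPM, against 9203 and 9969 CPM in the other deep members. Gm567 stood at 278 and 248 CPM in them, against 73.9 and 63.6 CPM. Gfra1 stood at 80.8 and 84.9 CPM in them, against 198 and 157 CPM, and Rspo1 at 39.3 and 89.5 CPM, against 82.5 and 170 CPM. The Tac1 cells were thus higher for Calca and Gm567 and lower for Gfra1 and Rspo1 in both libraries. Etv1 stood at 195 and 340.0 CPM, against 447 and 416 CPM, and Adcyap1 at 37.3 and 184 CPM, against 21.9 and 12.7 CPM. Mrgpra3, which chose the cells, stood at 219.5 and 560.1 CPM, against 438 and 638 CPM. Apoe stood at 168 and 108 CPM in them, against 572 and 204 CPM, so its summed level was lower in these cells. In libraries 1 and 2, 6 of all 32 and 2 of all 28 deep members held Apoe at 5 or more per 10000, against medians of 2.55 and 1.30. The part of these cells in the difference was not tested. Trpv1 had no shared direction, at 162 and 161 CPM, against 194 and 55.9 CPM.

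**Figure D5:**
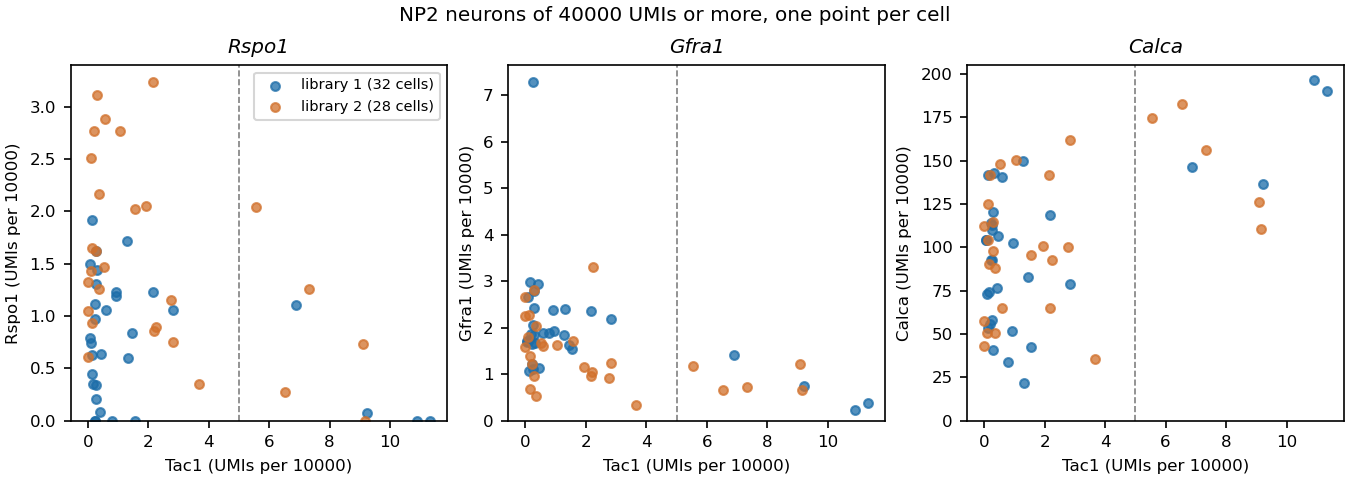
Rspo1, Gfra1 and Calca against Tac1, all in UMIs per 10000, in the 60 NP2 neurons of 40000 UMIs or more, 1 point per cell, library 1 in blue (32 cells) and library 2 in orange (28 cells). The dashed line marks Tac1 at 5 per 10000. The 4 and 5 cells to its right hold at least 110.6 Calca UMIs per 10000, a level that some cells to its left also reach. The upper quartiles of Calca over all deep members are 124 and 142 per 10000 in libraries 1 and 2.

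Across deep members, levels per 10000 UMIs were weakly tied. Spearman's rho, as a description over 32 cells of library 1 and 28 of library 2 that share their library, was 0.39 and 0.32 between Gfra1 and Rspo1 and 0.55 and 0.35 between Rspo1 and Hrh1. Between Mrgpra3 and Nefh it was -0.39 and -0.46, but Mrgpra3 chose the cells and is cut at 1 per 10000, so this pair describes the chosen cells only. These pairs were picked from those computed after their values were seen. Other pairs differed between the libraries, such as Scn11a and Hrh1 with 0.60 and -0.10. Library 1 held members with 9.12 and 33.9 Nefh UMIs per 10000, against a median of 0.756 in that library. Their Mrgpra3 stood at 1.08 and 1.11 per 10000, just inside the rule, and their part in rho was not tested.

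Single transcripts were caught in part of the cells. Deep cells were thinned to 40000 UMIs each and counted for at least 1 UMI. Hrh1 was caught in 16 of 32 NP2 neurons of library 1 (95% interval 31.9 to 68.1) and 57.1% of library 2 (37.2 to 75.5), against 0.709% and 0% of NP1 neurons. In NP3 neurons the shares were 41.4% and 35.7%. Rspo1 was caught in 24 of 32 and 27 of 28 NP2 neurons, against 1.42% and 4.17% of NP1 neurons. Mrgprx1 was caught in 37.5% and 28.6% of NP2 neurons, against 5.67% and 10.8% of NP1 neurons. Gfra1 and Scn11a were caught in at least 96.4% of NP2 neurons in both libraries. Mrgprd was caught in 25.0% and 7.14% of NP2 neurons and in 100% of NP1 neurons, which the rule for NP1 fixes. Glial barcodes (median depths 14499 and 13452.5) were thinned to 10000 UMIs for comparison. Rspo1 was caught in 26.0% and 31.5% of them, against 46.9% and 58.3% of NP2 neurons thinned alike. Hrh1 was caught in 0 of 181 and 0 of 54 glial barcodes. The source of Rspo1 in glial barcodes was not tested.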

How the data were processed

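The deposited matrices held UMI counts per gene and cell barcode for 2 libraries; per the submitters' processing notes, reads were handled with CASAVA 1.8 and Cell Ranger 5.0.1 on mm10, and the role of each step is not given in the sources used here. Columns of other kinds, the deposited gene and barcode names, were used as labels. Members and gene lists were chosen with earlier results of these data known. Libraries held 113251556 and 102347251 UMIs over kept and unkept barcodes. UMI counts were summed per gate and library and tested with edgeR 4.0.16 in R 4.3.3 (TMM scaling, filterByExpr, quasi-likelihood F test, Benjamini-Hochberg adjusted p of 0.05), with class and library as terms. The library term pairs sums from the same cell suspension. The fit against all other neurons used 4 sums, and a fit of 5 gates used 10. The text names, by rule, the 12 genes highest and lowest against other neurons and the 8 against each gate, among passing genes with 1 sign in both libraries and at least 20 CPM on the higher side; other genes are list members. DESeq2 1.42.0 was an alternative. Intervals are exact and cover counting error only. Scrublet's automatic thresholds marked 1 and 0 cells and so had not worked; removal of the highest scores was tried only as an alternative. Scripts were tested on simulated data. Promoters came from RefSeq, and 31184 of 31253 gene IDs matched GENCODE M21. Some list members enter the counts but are not reported here by name.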

Additional observations from a re-analysis of the deposited data

Results flagged for a closer look

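Mrgpra3 transcripts were also present in barcodes that failed the neuron rule, which no comparison used. In library 1 these barcodes held 63 Mrgpra3 UMIs, in 60 of 7691 barcodes (0.780%), and in library 2 they held 322, in 226 of 10347 barcodes (2.18%). Of barcodes that passed on neuronal genes but held under 10000 UMIs, 3251 and 5837 in libraries 1 and 2, 2 and 37 held at least 2 Mrgpra3 UMIs; a single UMI there already exceeds 1 per 10000. Glial barcodes held 0 Mrgpra3 UMIs in both libraries. The source of these transcripts was not tested.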

How the results depend on the processing

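Against all other neurons, 3907 genes passed; 1251 did without the replicate block, 1821 by DESeq2, 1452 at a fold of at least 1.5, 1008 in cells thinned to 10000 UMIs and 2244 against the mean of the other gates. The share of calls that were higher in NP2 neurons was 45.0%, but 34.2% without the block, 27.2% at a fold of at least 1.5 and 59.9% against the mean of the other gates. Against NP1 neurons 1234 passed without the block, 857 at the fold limit and 419 thinned; against NP3 neurons 1869, 1135 and 452; against Tac1 neurons 2445, 1616 and 751. The cause of these differences was not tested. The NP2 share was 3.499% with Mrgpra3 at 3 per 10000 and 5.02 to 6.36% with each library left out. Of 207 results on single genes, named by rule or as list examples, 54 lost their call without the block and 28 by DESeq2. At a fold of at least 1.5, 44 lost it, as did 48 of 206 in thinned cells. Against the mean of the other gates 47 of 157 lost it. At that setting list members also turned direction, with log2 fold changes of 0.17 for Grik1, 0.038 for Nefm and 0.44 for Slc17a8. In cells of 40000 UMIs or more, an alternative chosen after seeing the data, Cacna1c, Cox6c, Mrgpre, Nefm, Pcsk1n and Tmem63c did not pass. Leaving out a library leaves no residual degrees of freedom, so counts of calls have no such value.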
